A study of Pyrocoelia pectoralis with 6 samples.

Results

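Odorant-binding proteins and chemoreceptors were followed in male fireflies of the species Pyrocoelia pectoralis, in the light-making (luminous) organ and in a non-luminous organ. Members were all genes of the expression table whose description named an odorant, olfactory, gustatory, pheromone-binding, chemosensory or sensory neuron membrane protein, which gave 42 of 12533 genes. They comprised 7 binding proteins, 21 odorant receptors, 9 gustatory receptors, 4 sensory neuron membrane proteins and 1 cyclic nucleotide-gated channel, CNGA2 (RI129_013011), which came in through the word olfactory in its name. Each organ had 3 libraries, and the labels give no age, body position or tissue for the non-luminous organ. Whether an organ's 3 libraries are from different males or pools is not stated, so p-values measure only how these libraries vary, and that variation may be technical.

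Insects carry odours through the lymph around sensory neurons on odorant-binding proteins, small soluble secreted proteins. Odorant receptors are membrane proteins that form ion channels together with a shared coreceptor, Orco, and gustatory receptors form a related family that detects sugars, bitter compounds and carbon dioxide. Sensory neuron membrane proteins belong to the CD36 family of lipid receptors, and SNMP1 takes part in pheromone detection in Drosophila. These genes are best known from antennae, mouthparts and legs, but members of the binding protein and gustatory families are also active in gut, fat body and other tissues of insects. Gene names in the table are those of proteins in other species, several genes share 1 name, and each gene is given with its identifier. The sources used here do not say how reads shared by similar genes were assigned.

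Levels are FPKM, the number of reads or fragments scaled to gene length and to the library total, which allows levels of different genes to be compared per length. Library totals read from the FPKM steps were 18037627 to 20417645 reads. The lengths behind the values were taken as coding lengths, since 96.3% of them were multiples of 3. Read numbers are exact up to a factor common to all libraries of a gene. Differences between organs, from limma, are log2(FPKM + 1) of the luminous minus that of the non-luminous organ, a scale that understates the change of low genes. Calls required an adjusted p (Benjamini-Hochberg) below 0.05 among the 9863 genes whose mean reached 1 FPKM.

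Most of the 42 genes were hardly read in either organ. The median level over the 6 libraries was 0.726 FPKM for the members and 12.0 FPKM for all genes. Only 19 members (45.2%) reached a mean of 1 FPKM, against 78.7% of all genes, and 7 members had under 10 reads over all 6 libraries together. The 42 genes together took 1705 to 4135 reads per library. Of the 19 tested members, 5 were called (26.3%), 2 higher and 3 lower in the luminous organ, where 26.6% of all tested genes were called, 9.63% higher and 17.0% lower. Without any filter on low values 12.5% of all genes were lower, and 5 members were lower and 0 higher by limma. The share of members called was thus close to that of genes in general. Without each library in turn, the members called were 0 to 2 higher and 2 to 5 lower. In 13 of 42 members (31.0%) the organs did not overlap, with 39.4% for all genes and 46.1% for all tested genes. The direction of calls over all genes depended on the scaling: 950 were higher and 1676 lower as deposited, 1192 and 1369 after median-of-ratios rescaling, and 1480 and 1272 with quantile-normalized values. Quantile normalization also shifted the median over all tested genes, -0.095 as deposited, to 0.074.

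The binding proteins had the highest median level of the classes, at 4.95 FPKM. Their levels spread from 90.1 FPKM, the mean of Obp69a RI129_011032 over the 6 libraries, to 0.0196 FPKM for Obp19d RI129_004836. Their coding lengths ran from 381 to 606 bases with a median of 438, where the median of all genes was 1161 bases. Of the 7 genes, 5 were tested, and 2 were higher and 1 lower. Of all tested genes, 26.6% were called, 9.63% higher and 17.0% lower. The 2 higher calls were borderline, and each was kept by only 6 of 15 alternatives.

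The gene Obp69a RI129_011032, described as general odorant-binding protein 69a, was present in the non-luminous organ and all but missing from the luminous organ. It stood at 216, 267 and 57.3 FPKM in non-luminous replicates 1, 2 and 3. In the luminous organ it was at 0 FPKM in replicates 1 and 2 and at 0.121 FPKM in replicate 3. Every non-luminous library lay far above every luminous one, and non-luminous replicate 3 was the lowest of its organ. These levels rested on 1787, 2147 and 453 reads in the non-luminous libraries and on a single read, 1 in all, in the luminous ones. The ratio of reads per library total was 4716, with a 95% exact binomial interval of 846 to 186304 that covers counting error only. On the log2 scale the difference was -7.18 (SE 0.523, limma adjusted p = 0.000428). It was called by all 15 alternatives, with adjusted p of 8.85e-05 to 0.0432. The gene passed the filter on low values only through its non-luminous level. Fewer cells of a type and less RNA per cell cannot be told apart in whole organs, here and in all later results.

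Part of the digestive genes were also lower in the luminous organ. Of 77 genes described as trypsins, chymotrypsins, zinc carboxypeptidases or maltases, 38 were tested, of which 18 were lower, 1 was higher and 19 were not called, where 17.0% of all tested genes were lower. Their summed level was 1866, 567 and 579 FPKM in luminous replicates 1, 2 and 3 and 6409, 4706 and 6202 FPKM in the non-luminous ones, and 17 of the 77 had no luminous read. The digestive sum was 6202 FPKM in non-luminous replicate 3, where Obp69a RI129_011032 was lowest, and 4706 FPKM in replicate 2, where that gene was highest. Chymotrypsin BI RI129_002540 made up most of this sum, at 3614, 2647 and 4140 FPKM in non-luminous replicates 1, 2 and 3. The order was not shared by all digestive genes. Zinc carboxypeptidase A 1 RI129_011196, the next highest in non-luminous mean, stood at 1288, 553.5 and 362.9 FPKM and was lowest in replicate 3. Both were singled out after their values were seen. The part of gut tissue in the level of Obp69a RI129_011032 was not tested.

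The second gene of that name, Obp69a RI129_002240, went the other way. Luminous replicates 1, 2 and 3 held 40.1, 38.3 and 68.2 FPKM. Non-luminous replicates 1, 2 and 3 held 24.96, 32.6 and 24.5 FPKM. All luminous values were above all non-luminous ones, although luminous replicate 2 was close to non-luminous replicate 2, and luminous replicate 3 was the highest. The means were 48.9 ± 16.8 and 27.3 ± 4.54 FPKM (SD, n = 3). The log2 difference of 0.78 (SE 0.237) gave a limma adjusted p of 0.0476, just under the threshold. The call was lost without luminous replicate 3 (adjusted p = 0.0837) and also when any non-luminous replicate was left out (0.141, 0.0669 and 0.15 for replicates 1, 2 and 3), and the range over all alternatives was 0.0364 to 0.15. Only 6 of 15 alternatives called it. With 81.4% of genes at a lower mean, it was the most abundant member in the luminous organ.

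A second carrier was also higher in the luminous organ. The gene a10 RI129_002301 is described as putative odorant-binding protein A10, which in Drosophila belongs to the chemosensory proteins, another family of small soluble carriers. It stood at 14.5, 13.2 and 23.9 FPKM in luminous replicates 1, 2 and 3. The non-luminous replicates stood at 2.95, 10.3 and 6.53 FPKM. Again the organs did not overlap, and luminous replicate 3 was the highest and non-luminous replicate 1 the lowest. The log2 difference was 1.34 (SE 0.397, limma adjusted p = 0.0430). It was no longer called without luminous replicates 1, 2 and 3 (adjusted p = 0.0508, 0.0551 and 0.131) and without non-luminous replicates 1 and 3 (0.0973 and 0.107), with 0.0321 to 0.131 over all alternatives, 6 of 15 of which called it.

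The other binding proteins were not called. Obp70 RI129_004287, general odorant-binding protein 70, was at 6.999, 5.25 and 6.01 FPKM in luminous replicates 1, 2 and 3 and at 5.08, 2.96 and 3.38 FPKM in the non-luminous ones. A narrow gap separated the organs, and the log2 difference of 0.58 missed the threshold (limma adjusted p = 0.103, 0.0354 after quantile normalization, 0.0354 to 0.263 over all alternatives). Obp19d RI129_006941 was patchy within each organ, at 0, 0.224 and 1.81 FPKM in the luminous and 0.121, 2.36 and 1.77 FPKM in the non-luminous libraries. Its 51 reads included 2 or fewer in luminous replicates 1 and 2 and in non-luminous replicate 1. The last pair was too low to test. The gene a5 RI129_000919, named for a Drosophila antennal protein of the phosphatidylethanolamine-binding family, had 16 reads in all, at 0, 0.771 and 0.554 FPKM in the luminous and 0.835, 0 and 0 FPKM in the non-luminous libraries. Obp19d RI129_004836 had 1 read, in luminous replicate 2. No read of the latter in the non-luminous organ allows up to 0.130 FPKM there, which is the level of 3 reads over the 3 libraries.

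**Figure D1:**
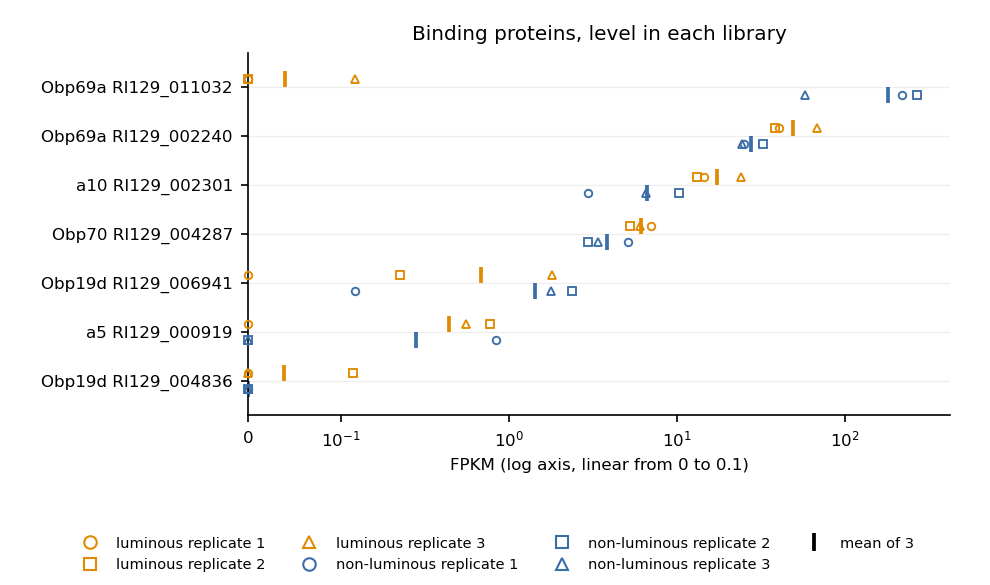
FPKM of the 7 binding proteins in each library, on a log axis that is linear from 0 to 0.1. Open symbols are libraries and vertical bars are means of 3. Obp69a RI129_011032 lies at 0 to 0.121 FPKM in the luminous and 57.3 to 267 FPKM in the non-luminous libraries, while Obp69a RI129_002240, a10 and Obp70 lie higher in the luminous organ without overlap.

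The odorant receptors stayed near the limit of detection. The 21 genes together held 10.6 to 17.9 FPKM in the luminous libraries and 9.08 to 10.2 FPKM in the non-luminous ones, from 135 to 258 reads per library. The highest of them by the mean of the 6 libraries reached 1.56 FPKM, and 6 had under 10 reads in all. Their recovered lengths ran from 263 to 1446 bases with a median of 1083. The 263 bases of Or2a RI129_004865 are not a multiple of 3. A multiple of that length, with as many times the reads, would fit its values equally. Only 6 passed the filter, and limma called 0 of them (1 higher and 0 lower at an unadjusted p under 0.05, and 0 by voom on the recovered reads).

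Orco (RI129_012275), the coreceptor that insect odorant receptors need to reach the cilium and to conduct, was read in every library but only 22 times in all. It had 3, 4 and 5 reads in luminous replicates 1, 2 and 3 and 3, 2 and 5 reads in the non-luminous ones. In FPKM that was 0.104, 0.135 and 0.183 against 0.11, 0.0753 and 0.192, so the organs overlapped fully. The means were 0.141 ± 0.0397 and 0.126 ± 0.0598 FPKM (SD, n = 3), lower than those of all but 10.6% and 8.3% of genes. With so few reads a difference in Orco was not detectable at this depth. Of the 5 symbols looked for as marks of a sensory organ, Orco was the only one matched.

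By the mean of the 6 libraries the highest odorant receptor was GPROR4 RI129_007932, described as odorant receptor 4. Or7a RI129_007466 had a slightly higher luminous mean (2.16 against 2.15 FPKM), but from 39 reads over 309 bases, against 104 reads over 813 bases. OR2 RI129_002556 had a higher non-luminous mean (1.56 against 0.973 FPKM). GPROR4 RI129_007932 was even across the luminous organ, with 2.21, 2.23 and 2.01 FPKM in replicates 1, 2 and 3. It varied in the non-luminous organ, with 1.44, 0.870 and 0.614 FPKM. There was no overlap, at 104 and 44 reads, and the log2 difference of 0.70 (SE 0.252) did not pass (limma adjusted p = 0.0809, 0.0174 after quantile normalization, 0.0332 without an intensity trend, 0.0174 to 0.222 over all alternatives). Or7a RI129_007466 was likewise without overlap, at 0.969, 1.58 and 3.93 FPKM in the luminous and 0.343, 0.881 and 0.718 FPKM in the non-luminous libraries, on 50 reads in all. Its limma adjusted p was 0.141, and 0.0458 after quantile normalization, with 0.0458 to 0.365 over all alternatives.

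The remaining tested odorant receptors overlapped between the organs. Or22c RI129_010075 was at 1.53, 0.333 and 3.86 FPKM in the luminous and 0.0902, 1.20 and 0.283 FPKM in the non-luminous libraries. Or85d RI129_001768 was at 1.25, 2.32 and 0.727 FPKM against 1.14, 0.938 and 0.334 FPKM. OR2 RI129_002556 was at 0.517, 2.13 and 1.31 FPKM against 2.25, 1.41 and 1.03 FPKM, a log2 difference of -0.18 that turned to 0.20 after quantile normalization. Or2a RI129_013140 was at 2.21, 0.140 and 1.36 FPKM against 0.455, 1.402 and 1.27 FPKM. Limma adjusted p was 0.284, 0.417, 0.740 and 0.956 in that order.

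Below the filter, Or30a RI129_007996 was the only odorant receptor whose luminous libraries all lay under the non-luminous ones. It had 14, 12 and 17 reads in non-luminous replicates 1, 2 and 3 and 0, 7 and 1 in the luminous ones, which is 1.06, 0.931 and 1.34 FPKM against 0, 0.488 and 0.0752 FPKM. Without a filter limma called it lower, with a log2 difference of -0.85 and an adjusted p of 0.0221, a test not made with the filter. The other 14 untested odorant receptors overlapped between the organs and each had a mean under 1 FPKM. Among them Or67c RI129_002552 and Or85d RI129_002553 had 76 and 124 reads, and Or92a RI129_012909 had 30 of its 47 reads in luminous replicate 3. No luminous read was found for 4 genes, Or85d RI129_009408, Or85d RI129_009929, Or67a RI129_010683 and GPROR4 RI129_012908, with 2, 3, 5 and 2 reads in the non-luminous organ. With so few reads a difference was not detectable at this depth.

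The gustatory receptors had a median level of 1.94 FPKM, against 0.355 FPKM for the odorant receptors. Of 9 genes, 5 were tested, and 2 of these (40.0%) were called. Of all tested genes, 26.6% were called, 9.63% higher and 17.0% lower. Both called receptors were lower in the luminous organ, and 0 were higher by limma (1 higher at an unadjusted p under 0.05, and 0 higher by voom). The summed level of the 9 genes was 21.4 to 63.3 FPKM in the luminous libraries and 39.9 to 43.0 FPKM in the non-luminous ones.

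There were 2 genes named Gr64f, after a receptor subunit of sugar taste in Drosophila, and in both the luminous libraries lay under the non-luminous ones. Gr64f RI129_013191 stood at 11.2, 6.82 and 12.5 FPKM in non-luminous replicates 1, 2 and 3. The luminous replicates stood at 0.561, 0.629 and 0.933 FPKM. The organs were widely apart, and each organ's libraries lay close together. The reads were 701 against 52, and the mean was 14.4 times higher in the non-luminous organ. On the log2 scale the difference was -2.68 (SE 0.264, limma adjusted p = 0.00126). It was called by all 15 alternatives, with adjusted p of 0.00149 to 0.0110. It passed the filter through its non-luminous level, since the luminous mean was 0.708 ± 0.198 FPKM (SD, n = 3). The summed level of the digestive genes was also lower in all luminous libraries, and its lowest non-luminous value, 4706 FPKM, was in replicate 2, as for this gene. Most of that non-luminous sum came from Chymotrypsin BI RI129_002540, and not all digestive genes were lowest in replicate 2. The part of gut tissue in the level of Gr64f RI129_013191 was not tested.

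Gr64f RI129_012542 had 17, 23 and 11 reads in non-luminous replicates 1, 2 and 3 and 4, 3 and 6 in the luminous ones, or 1.02, 1.41 and 0.689 FPKM against 0.226, 0.166 and 0.358 FPKM. Its mean over the 6 libraries was under 1 FPKM, and without a filter limma gave a log2 difference of -0.70 and an adjusted p of 0.0290. The other 2 sugar receptor genes showed no such gap. Gr64e RI129_004816 had 12 luminous and 13 non-luminous reads, and Gr43a RI129_012820, named for a fructose receptor of Drosophila, had 6 and 9.

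The 4 genes described as gustatory receptor 28b, which in Drosophila serves bitter taste as well as the sensing of heat and light, did not move together. Gr28b RI129_001377 had the highest mean over the 6 libraries of all receptors, though GPRgr24 RI129_004109 had the higher luminous mean (15.7 against 11.2 FPKM). It was lower in the luminous organ, at 9.92, 14.6 and 9.20 FPKM in replicates 1, 2 and 3. The non-luminous replicates stood at 19.0, 22.9 and 21.7 FPKM. No library crossed between the organs, and the means were 11.2 ± 2.94 and 21.2 ± 1.97 FPKM (SD, n = 3). The log2 difference was -0.88 (SE 0.195, limma adjusted p = 0.0163). Leaving out luminous replicate 3, non-luminous replicate 2 or non-luminous replicate 3 lost the call (adjusted p = 0.0509, 0.0625 and 0.0664), and 12 of 15 alternatives kept it, with 0.00495 to 0.0664 in all.

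Gr28b RI129_003448 had the opposite direction, at 3.28, 1.03 and 5.09 FPKM in luminous replicates 1, 2 and 3 and 0.791, 0.860 and 0.584 FPKM in the non-luminous ones. The luminous libraries all lay higher, although replicate 2 came close. The log2 difference of 1.11 (SE 0.407) was not called (limma adjusted p = 0.0834). It was called without luminous replicate 2 (0.0103) and after quantile normalization (0.0395), with 0.0103 to 0.229 over all alternatives. Gr28b RI129_002368 overlapped, at 6.48, 2.86 and 3.08 FPKM against 5.46, 4.26 and 6.22 FPKM (limma adjusted p = 0.417). Gr28b RI129_004493 had no luminous read, which allows up to 0.0469 FPKM there, and 3, 1 and 23 reads in non-luminous replicates 1, 2 and 3. The last of these libraries held most of its reads.

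GPRgr24 RI129_004109, described as gustatory and odorant receptor 24 and named for a subunit of the carbon dioxide receptor of Anopheles gambiae, was high in 1 library. Luminous replicate 1 held 42.6 FPKM, from 1123 reads. Luminous replicates 2 and 3 held 1.57 and 2.85 FPKM, and the non-luminous replicates 1, 2 and 3 held 1.78, 4.64 and 0.0844 FPKM. Luminous replicate 1 was 14.9 times as high as the next luminous library and carried 90.6% of the organ's summed level. The remaining 5 libraries overlapped between the organs. The log2 difference of 1.56 (SE 1.078) was not called (limma adjusted p = 0.324) and was 0.29 without luminous replicate 1 (adjusted p = 0.772), with 0.165 to 0.772 over all alternatives. A level over 5 times that of every other library was found for 27 of 9863 tested genes in luminous replicate 1 (0.27%), against 0 to 8 genes in each of the other libraries, and GPRgr24 was the only one of the 19 tested members among them. The summed level of the digestive genes was also highest of the luminous libraries in replicate 1, at 1866 FPKM against 567 and 579 FPKM. Most of the sum in replicate 1 came from 1 gene, Chymotrypsin-1 RI129_013139, at 1296, 75.7 and 31.1 FPKM in luminous replicates 1, 2 and 3. The order was not shared by all digestive genes. Trypsin beta RI129_013067 was also highest in replicate 1, at 77.9, 4.13 and 2.19 FPKM. Chymotrypsin RI129_009655, at 129, 213 and 234 FPKM, and Zinc carboxypeptidase A 1 RI129_011199, at 127, 150 and 182 FPKM, were lowest there. These genes were singled out after their values were seen. The part of gut tissue in the level of GPRgr24 was not tested.

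**Figure D2:**
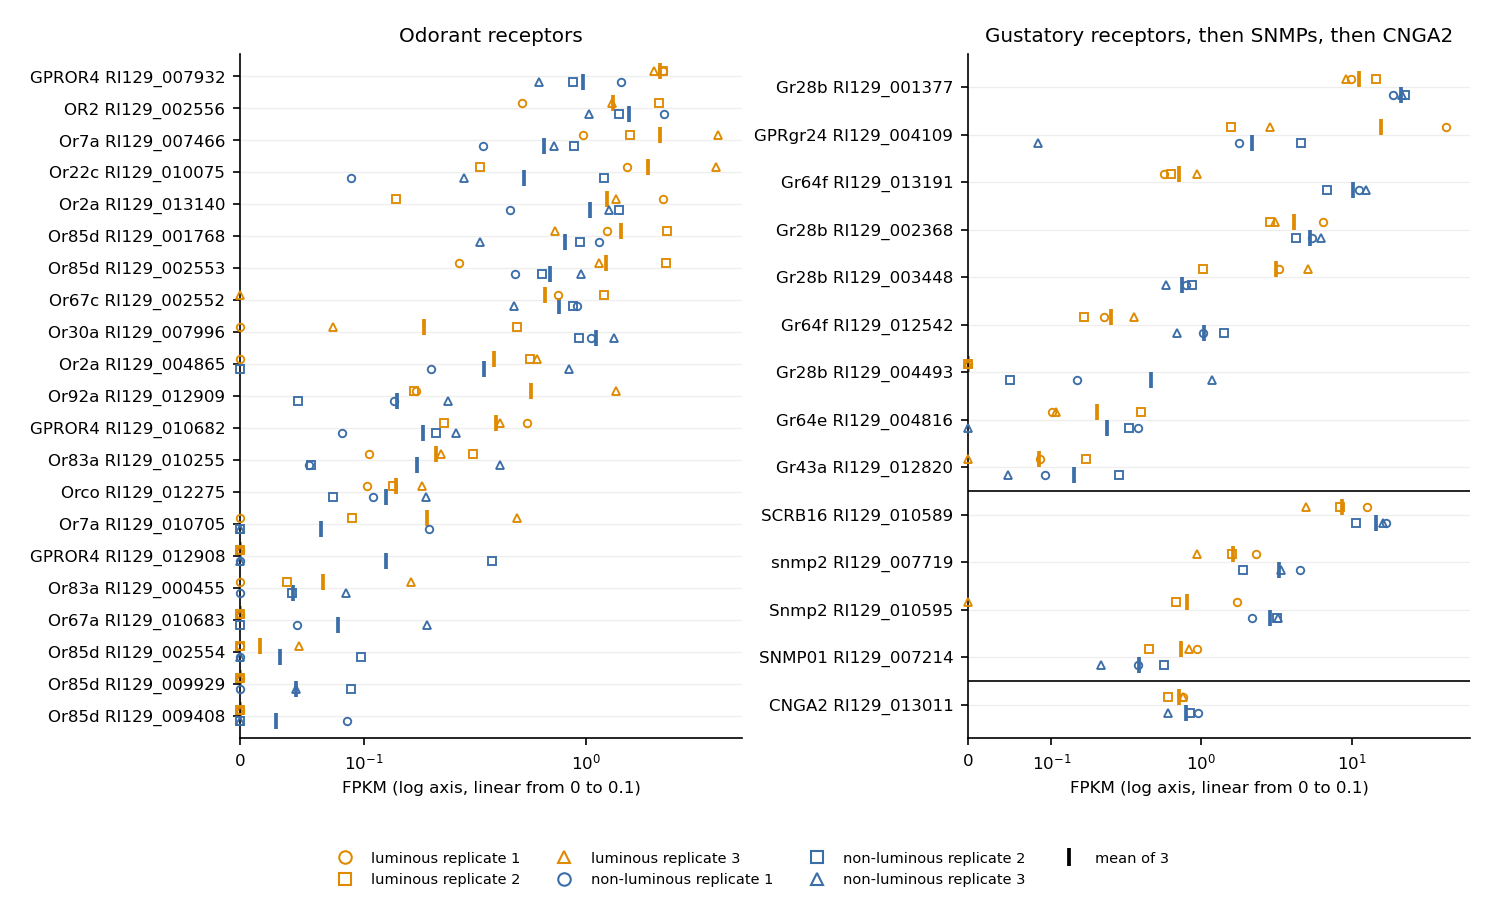
FPKM of the 21 odorant receptors (left) and of the gustatory receptors, sensory neuron membrane proteins (SNMPs) and CNGA2 (right) in each library, on a log axis that is linear from 0 to 0.1. Open symbols are libraries and vertical bars are means of 3. Gr64f RI129_013191 lies at 0.561 to 0.933 FPKM in the luminous and 6.82 to 12.5 FPKM in the non-luminous libraries, and luminous replicate 1 stands alone at 42.6 FPKM for GPRgr24.

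The sensory neuron membrane proteins were split by name, with the SNMP2 genes lower in mean in the luminous organ and SNMP1 higher, but limma called 0 of 3 tested (0 higher and 2 lower at an unadjusted p under 0.05, and 0 by voom). Snmp2 RI129_010595 was at 1.71, 0.673 and 0 FPKM in luminous replicates 1, 2 and 3 and at 2.19, 3.18 and 3.24 FPKM in the non-luminous ones, without overlap. The difference was -1.21 on the log2 scale (SE 0.386, limma adjusted p = 0.0545). It passed without luminous replicate 1 (0.0139) and with a pseudocount of 5 (0.0443), with 0.0139 to 0.159 over all alternatives. SCRB16 RI129_010589, also described as sensory neuron membrane protein 2, was the most abundant of the 4, at 12.6, 8.33 and 4.96 FPKM against 17.0, 10.7 and 16.1 FPKM. Its recovered coding length was 447 bases and that of Snmp2 RI129_010595 was 291 bases, against 1686 for snmp2 RI129_007719 and 1542 for SNMP01 RI129_007214. Whether the short ones are complete or separate genes was not tested. For SCRB16 the organs overlapped through luminous replicate 1, and the limma adjusted p was 0.124, or 0.0299 without that library (0.0299 to 0.301 over all alternatives). The gene snmp2 RI129_007719 overlapped too, at 2.31, 1.60 and 0.939 FPKM against 4.56, 1.91 and 3.39 FPKM (limma adjusted p = 0.155, 0.0943 to 0.43 over all alternatives). SNMP01 RI129_007214, sensory neuron membrane protein 1, was under the filter at 0.735 ± 0.258 and 0.386 ± 0.175 FPKM (SD, n = 3), from 67 and 33 reads, and the organs overlapped. The channel gene CNGA2 RI129_013011 overlapped between the organs at 0.705 ± 0.0886 and 0.795 ± 0.181 FPKM (SD, n = 3), from 163 and 172 reads.

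**Figure D3:**
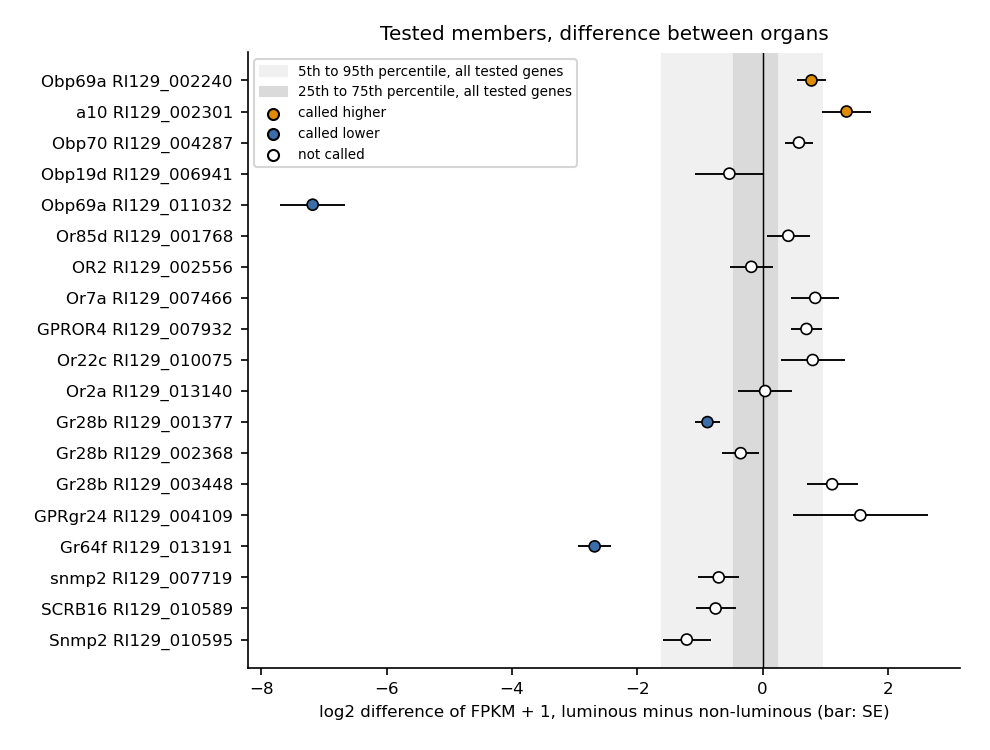
Log2 difference of FPKM + 1, luminous minus non-luminous, for the 19 tested members, with bars of 1 SE from limma. Filled points were called, and the grey bands run between percentiles of all 9863 tested genes named in the legend. Obp69a RI129_011032 at -7.18 and Gr64f RI129_013191 at -2.68 lie farthest below 0.

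Neural genes beside these receptors were called in both directions. For the counts that follow, 9.63% of all tested genes were higher and 17.0% lower. Of 7 genes found under 6 of 10 neuronal symbols, 5 were tested, with Syn higher and cac and Syt1 lower, and their summed level was 60.7 to 67.3 FPKM in the luminous and 74.8 to 101 FPKM in the non-luminous libraries. The call of Syn was lost without luminous replicate 3 and without each non-luminous replicate, where 0 were higher. The count of 2 lower was the same with each library left out. The tested futsch and nSyb were not called. Below the filter, unc-13 was lower in all luminous libraries, at 0.228 to 0.358 FPKM against 0.807 to 0.977 FPKM. The part of nerve tissue in the receptor levels was not tested. Fat body genes, 4 in number, gave 3 lower and 1 higher, with sums of 170 to 308 and 363 to 378 FPKM, and 0 lower without non-luminous replicate 3. Genes described as tektins, axonemal dynein, testis-specific or spermatogenesis-associated proteins were listed for the male reproductive tract by name only. They gave 3 lower and 0 higher of 22 tested by limma (0 higher also at an unadjusted p under 0.05 and by voom), and 1 lower without luminous replicate 3 or any 1 non-luminous library. Their sums were 215 to 247 FPKM in the luminous and 239 to 274 FPKM in the non-luminous libraries. SPATA20 RI129_009382 alone held 120 to 130 and 104 to 133 FPKM of these.

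Other carriers of small ligands were counted by family, beside the 9.63% of all tested genes that were higher and the 17.0% that were lower. Of 7 genes described as ejaculatory bulb-specific protein 3 or allergen Tha p 1, names carried by chemosensory proteins, 1 of 4 tested was higher and 1 lower. The higher one, RI129_002302, has the identifier next to a10 RI129_002301 in a run of 6 neighbouring identifiers that all belong to this family. It stood at 81.9, 54.7 and 57.5 FPKM against 40.2, 42.5 and 34.5 FPKM (log2 difference 0.69, limma adjusted p = 0.0264, 0.0119 to 0.101 over all alternatives), and its call was lost when any non-luminous replicate was left out (0.0726, 0.0586 and 0.101 for replicates 1, 2 and 3). The lower one, EbpIII RI129_000871, has a distant identifier, and its call was lost without luminous replicates 2 and 3 (adjusted p = 0.0892 and 0.104) and without non-luminous replicates 2 and 3 (0.11 and 0.103), with 0.0373 in the fit to all libraries. In the Niemann-Pick C2 family, proteins that bind sterols and, in insect antennae, other small hydrophobic ligands, all 3 genes were higher, led by NPC2 RI129_003366 at 2097 ± 775 against 843 ± 154 FPKM (SD, n = 3; log2 difference 1.27, limma adjusted p = 0.0149). Without non-luminous replicate 3, only 1 of the 3 was called. Of 21 genes of the takeout and daywake family, carriers of hydrophobic ligands such as juvenile hormone, 7 of 18 tested were higher and 0 lower by limma (0 lower also at an unadjusted p under 0.05 and by voom), with a median log2 difference of 0.76. That count was 12 without luminous replicate 1, and 4 without luminous replicate 3, 2 without non-luminous replicate 1 and 1 without non-luminous replicate 3. The median was 0.58 for the 5 tested binding proteins and -0.09 for all tested genes.

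Other receptor families were counted in the same way, beside the 26.6% of all tested genes that were called. The ionotropic receptors, a second family of odour, humidity and temperature receptors, had 0 of 4 tested genes called (0 at an unadjusted p under 0.05, and 0 by voom), and 2 more below the filter. Ir93a RI129_001453, a coreceptor for temperature and humidity sensing in Drosophila, was at 14.2, 4.15 and 4.88 FPKM in luminous replicates 1, 2 and 3 and at 4.004, 7.48 and 5.37 FPKM in the non-luminous ones, so that luminous replicate 1 was highest here as well. Of 11 transient receptor potential channels, 0 of 8 tested were called by limma (1 higher and 0 lower at an unadjusted p under 0.05, and 0 by voom). Of 15 glutamate receptors described as ionotropic, 3 of 9 tested were higher and 1 lower, but 0 were higher without luminous replicate 2 or any 1 non-luminous library, and 1 without luminous replicate 3. Of 12 genes named as arrestins or arrestin domain proteins, 2 of 11 tested were higher and 1 lower, and 0 were higher without non-luminous replicate 2 or 3. All 3 called genes are described as arrestin domain-containing proteins, and no gene described as an arrestin homolog or beta-arrestin was called.

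**Figure D4:**
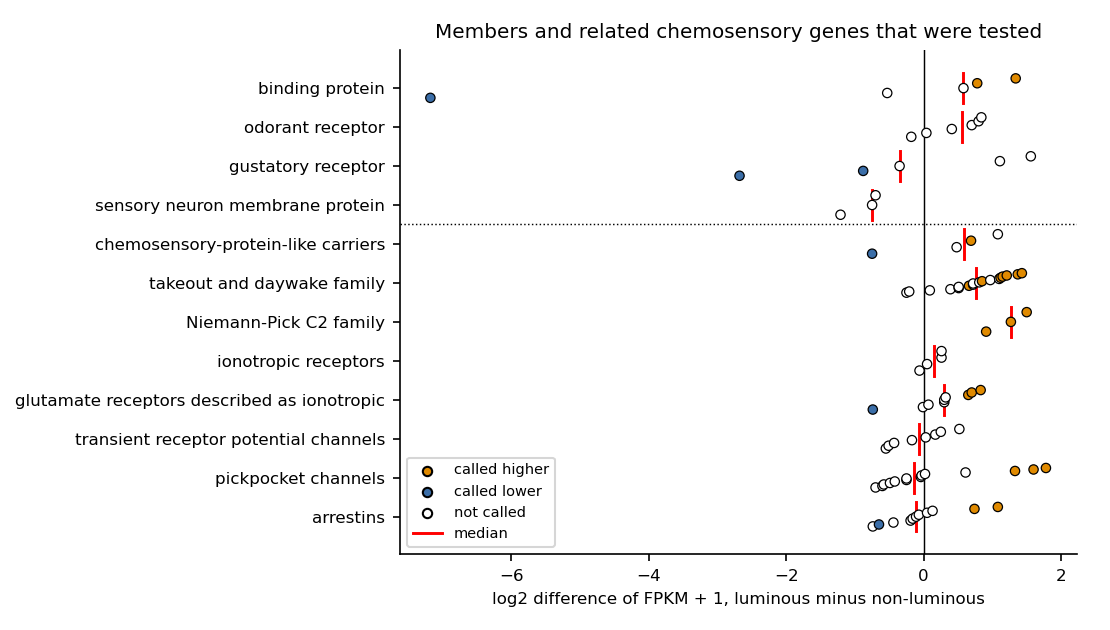
Log2 difference of FPKM + 1, luminous minus non-luminous, for each tested gene of the member classes (above the dotted line) and of related families (below). Filled points were called and red bars are medians, which are 0.58 for the binding proteins, 0.76 for the takeout and daywake family and -0.09 for all tested genes.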

How the data were processed

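Messenger RNA was measured in 3 libraries of each organ, made with a stranded kit per the labels' protocols. The authors deposited FPKM values for 12533 genes. Trimmomatic, HISAT2, HTSeq and R 3.2.0 are named without roles, per the submitters' processing notes. Not given in the sources used here are genome build, annotation, strand setting and filters, so reads of similar or antisense genes may be divided in unknown ways. Descriptions came from the same table.

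Reads were recovered from FPKM steps. Whole library totals and whole lengths of 150 to 60000 bases left read numbers at most 1.74e-04 from whole for 99.99% of genes, and 96.3% of lengths were multiples of 3. The recovery and the model were tested on simulated data. For the model only genes well above the filter were changed, so that test does not cover genes as low as most members. Floors of 3 reads are per organ.

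The 9863 genes averaging 1 FPKM or more were fitted with limma 3.58.1 (R 4.3.3; log2 of FPKM plus 1, intensity trend, two-sided, Benjamini-Hochberg). Members, gene lists and marker lists (muscle symbols matched 0 genes) were chosen with earlier results of these data known. Values are given by library for called members, all 7 binding proteins, the 8 receptors with the highest mean in either organ, Orco and sensory neuron membrane proteins; others named were chosen after their values were seen. The 15 alternatives were 14 planned ones (pseudocounts, filters, scalings, no trend, replicate block, each library left out) and voom on the recovered read numbers, which was added once values were seen. Exact intervals used scipy 1.17.1.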

Additional observations from a re-analysis of the deposited data

How the results depend on the processing

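The call of 1 binding protein lower, which is that of Obp69a RI129_011032, held under every alternative run, and that of Gr64f RI129_013191 likewise. The 2 binding proteins higher were 3 after quantile normalization, 1 with a pseudocount of 5, and 0 with no filter, with no intensity trend and by voom on the recovered reads. They were 0 to 1 with each library left out. Receptors lower were 4 with no filter and 1 to 2 with each library left out. Receptors higher were 3 after quantile normalization, 1 with no trend and 0 to 1 with each library left out. All genes called were 1119 to 2648 with each library left out, a fit that has fewer samples. Same-numbered libraries of the organs did not deviate together (r = -0.111, -0.009 and -0.166 across genes). Variation particular to each library could hide a shared animal, so whether the numbers pair the libraries stays unknown. With the replicate block the binding proteins higher were 0, no other member's call changed, and all genes called were 1996. Among uncalled genes, OR2 RI129_002556 turned to 0.199 after quantile normalization and ranged from -0.426 to 0.096 with a library left out. Or2a RI129_013140 turned to -0.165 with a pseudocount of 0.1, -0.264 by voom and ranged from -0.282 to 0.465 with a library left out. The cause was not tested. Depth limits the odorant receptors most, at 1117 reads over 21 genes and 6 libraries.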

Other observations

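Pickpocket channels, sodium channels of the degenerin family that serve taste and touch in insects, held 3 higher and 0 lower genes by limma among 14 tested of 28 (3 lower at an unadjusted p under 0.05, and 0 lower by voom). That is 21.4% called, with 26.6% for all tested genes (9.63% higher and 17.0% lower). All 3 are described as pickpocket protein 28, a water-taste channel in Drosophila, and lie in an unbroken run of ppk28 identifiers from RI129_010206 to RI129_010222. The gene ppk28 RI129_010207 stood at 3.33, 3.24 and 6.97 FPKM in luminous replicates 1, 2 and 3 and at 0.675, 0.561 and 0.370 FPKM in the non-luminous ones. The organs did not overlap (log2 difference 1.78, limma adjusted p = 0.00747). Its neighbour ppk28 RI129_010206 stood at 4.997 ± 2.03 against 0.942 ± 0.443 FPKM (SD, n = 3; limma adjusted p = 0.0105), and ppk28 RI129_010212 at 2.43 ± 0.571 against 0.384 ± 0.334 FPKM (adjusted p = 0.0155). The count of 3 higher was the same with each library left out in turn.

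Genes with identifiers next to the strongest members were looked at after their values were seen. RI129_011033, which follows Obp69a RI129_011032 and has no description, was at 11.95, 13.03 and 1.04 FPKM in non-luminous replicates 1, 2 and 3 and at 0, 0 and 0.124 FPKM in the luminous ones. It was thus lowest in the same non-luminous library as Obp69a RI129_011032 (log2 difference -2.79, limma adjusted p = 0.0251, 0.00202 to 0.0887 over all alternatives). The next gene, RI129_011034, was higher in the luminous organ, at 108 ± 29.7 against 40.6 ± 6.57 FPKM (SD, n = 3). On the other side, RI129_011030, also without a description, was at 33.8, 7.77 and 1.21 FPKM in luminous replicates 1, 2 and 3. It was at 0.122, 0 and 1.27 FPKM in the non-luminous ones, with overlap, and was not called (log2 difference 2.68, limma adjusted p = 0.0654). FABP4 RI129_013190, which precedes Gr64f RI129_013191 and is described as a fatty acid-binding protein, was at 1091, 802 and 1528 FPKM in the non-luminous and 140, 210 and 157 FPKM in the luminous libraries. Both genes had their lowest non-luminous level in replicate 2 and their highest in replicate 3. Positions and strands of these genes were not used here.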
